A study of Mus musculus with 16 samples.

Results

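Orphan and adhesion G protein-coupled receptors were described in classical dendritic cells of mice with and without Ciita, the master regulator of MHC class II genes. All probe sets with a single gene symbol that began with Gpr and a digit, with Gprc or with Adgr were taken, and a gene with more than 1 probe set was represented by the one with the highest mean. This gave 102 receptors of 19938 genes, made up of 71 numbered Gpr genes, 26 adhesion receptors and 5 Gprc genes. The RNA of sorted cells was read on 16 arrays of the type Affymetrix Mouse Gene 1.0 ST, 2 in each of 8 groups. The Ciita KO groups (Ciita -/-, Zbtb46 GFP/+) and the WT groups (Ciita +/+, Zbtb46 GFP/+) were B6 mice, so that every mouse, controls included, had 1 GFP allele of Zbtb46, a transcription factor gene of classical dendritic cells. In each genotype, CD24+ and CD172a+ cells were sorted from Flt3l cultures of bone marrow and from spleen. The cultures ran for 9 days in 5% Flt3l and were then activated with gamma interferon (16 hours in the series design, 22 hours in the growth protocol) and with LPS for 4 hours. No activation is recorded for the spleen cells. Each of the 8 mice gave 1 array of each subset, which made 4 mice per genotype and 2 per genotype and source. The sources used here do not give the age of the mice. The source of the cells, the time in culture and the activation differed together and cannot be told apart.

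G protein-coupled receptors sit in membranes and pass an outside signal to heterotrimeric G proteins inside the cell. Orphan receptors are those whose natural ligand is unknown or disputed. Adhesion receptors carry a long extracellular part, which most of them cut from the membrane part by their own activity and keep attached, and many bind proteins of neighbouring cells or of the matrix. In dendritic cells a well studied numbered receptor is Gpr183 (EBI2), which reads oxysterol gradients and places cells within the spleen.

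The arrays were checked against the labels before the receptors were read. Ciita itself gave log2 signals of 7.17 to 9.70 in KO and 10.15 to 10.85 in WT cultures, and of 10.90 to 11.28 in KO and 10.97 to 11.40 in WT spleens. The ranges were separate in culture and overlapped in spleen, and whether the probe set covers the deleted part is not known. H2-Ab1, an MHC class II gene that Ciita switches on, was separate in both sources, with 9.38 to 11.63 in KO and 13.68 to 13.85 in WT cultures, and 11.26 to 12.18 in KO and 13.97 to 14.07 in WT spleens. All 9 markers listed for CD24+ type 1 dendritic cells, Xcr1 and Clec9a among them, lay above the array median in all 4 CD24+ arrays of each source. Of 8 markers listed for CD172a+ type 2 cells, 8 lay above it in all 4 spleen CD172a+ arrays but 2, Sirpa and Irf4, in all 4 cultured CD172a+ arrays. The same 2 lay above it in all 4 cultured CD24+ arrays, and 4 of the 8 did in spleen CD24+ arrays. Of the 9 type 1 markers, 5 lay above it in all 4 cultured and 6 in all 4 spleen CD172a+ arrays. By level, Sirpa and Irf4 did not overlap between the cultured subsets. Sirpa was 11.07 to 11.37 in cultured CD172a+ and 8.36 to 9.17 in cultured CD24+ arrays, and Irf4 10.72 to 10.98 and 8.41 to 9.69. Cd24a was 13.00 to 13.16 in cultured CD24+ and 12.98 to 13.05 in cultured CD172a+ cells, so its RNA did not separate the cultured subsets. Culture CD24+ KO replicate 2 stood apart from the other 3 arrays of its kind, with Xcr1 at 9.58 and Sirpa at 9.17, against 10.40 to 10.87 and 8.36 to 8.43 in the others.

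On the log2 scale of the deposited values, 54 of the 102 receptors (52.9%) lay above the median of their array in at least 2 arrays, against 11927 of 19938 genes (59.8%). Of these, 21 were above it in all 16 arrays, as were 41.0% of all genes, and 33 in 2 to 15 arrays. The remaining 48 (47.1%) were called low, with 45 above the median in no array and 3 (Gpr55, Gpr153 and Gpr85) in 1 array. A low signal on an array may be background, so low does not mean absent, and a difference from a group below the array median may be understated. Counted by cell, at least 2 of 4 arrays were above the median for 40 receptors in cultured CD24+, 38 in cultured CD172a+, 41 in spleen CD24+ and 42 in spleen CD172a+ cells. Named for the highest mean signals over all arrays, which set no order of level between probe sets, were Gpr132, Gpr65, Gpr137b-ps, Gpr108, Gpr18, Gpr137b, Gpr4, Gpr171, Gpr183 and Gpr35, which all lay above the median in all 16 arrays. Of the 26 adhesion receptors, 14 passed the limit and none did so in all 16 arrays. Of 12 receptors listed for lipids, metabolites or protons, 8 passed, 7 of them in all 16 arrays.

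**Figure D1:**
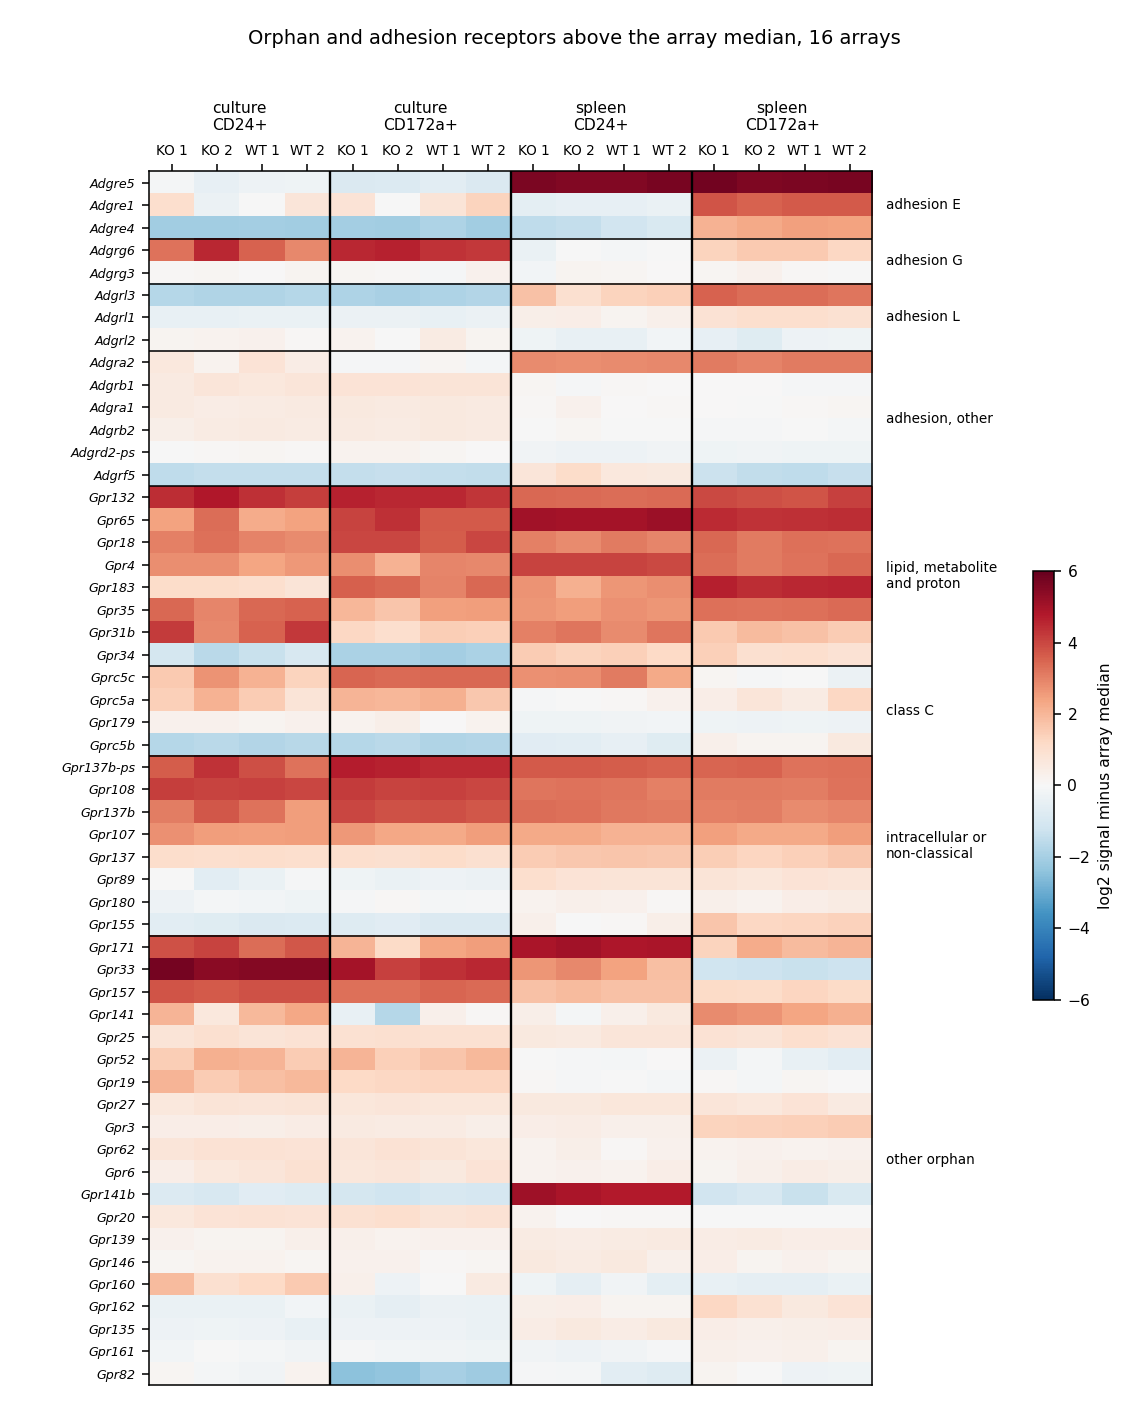
Log2 signal minus the array median (colour, white at 0, red above and blue below) for the 54 receptors above the median in at least 2 arrays, in rows grouped by role, over the 16 arrays in columns. Adgre5, Adgrl3 and Adgra2 are red in the spleen columns, Adgrg6 and Gpr33 are strongest in the culture columns, and Gpr141b is red in the 4 spleen CD24+ arrays.

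The limit between the receptors above the median and the low ones was narrow. Just inside it were Gpr82, Adgrd2-ps and Adgrg3, whose second-highest array lay 0.15, 0.20 and 0.24 above that array's median on the log2 scale. Just outside it were Adgrg1, Gpr55 and Gpr83, at -0.11, -0.11 and -0.12.

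In spleen, the orphan receptors Gpr141b, Gpr33 and Gpr171 and the class C receptor Gprc5c were higher in CD24+ cells, and the adhesion receptors Adgre1, Adgre4 and Adgrl3 and the oxysterol receptor Gpr183 were higher in CD172a+ cells. Of the 102 receptors, 15 were higher and 19 lower in CD24+ than in CD172a+ cells (limma over all 19938 genes, Benjamini-Hochberg adjusted p under 0.05), while 15.6% of all genes were called higher and 13.4% lower. Changes of at least 2-fold were called for 14 receptors, 13.7% of them, against 4.2% of all genes. Differences between groups are log2 values ± SE of the fit. The median size of a difference was 0.114 for the receptors and 0.109 for all genes. In these bulk RNA samples, fewer cells of a type and less RNA per cell cannot be told apart. P-values measure the spread between mice, with the 2 arrays of 1 mouse taken as separate samples.

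Gpr141b, an orphan receptor gene on chromosome 13, marked CD24+ cells of spleen. It gave 12.41 and 12.22 in KO and 12.08 and 12.06 in WT spleen CD24+ cells, against 6.14 and 6.34 in KO and 5.97 and 6.37 in WT spleen CD172a+ cells. In culture it gave 6.01 and 5.92 in KO and 6.19 and 6.13 in WT CD24+ cells, against 5.86 and 5.73 in KO and 5.92 and 5.89 in WT CD172a+ cells. The 4 spleen CD24+ arrays were thus above the array median, and the 12 others all lay below it. The spleen difference was 5.99 ± 0.084 (adjusted p = 4.62e-13), and the one in culture was 0.21 ± 0.084 and did not pass (adjusted p = 0.0944).

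Gpr141, its neighbour on the same chromosome and also an orphan, ran the other way in spleen. It gave 7.68 and 7.19 in KO and 7.61 and 7.90 in WT spleen CD24+ cells, against 10.14 and 9.97 in KO and 9.67 and 9.43 in WT spleen CD172a+ cells, with no overlap. In culture the order was turned, with 8.87 and 7.51 in KO and 8.83 and 9.20 in WT CD24+ cells, against 6.47 and 5.21 in KO and 7.16 and 7.01 in WT CD172a+ cells. In both cultured subsets KO replicate 2 was the lowest array. The subset difference was -2.21 ± 0.29 (adjusted p = 8.97e-05) in spleen and 2.14 ± 0.29 (adjusted p = 1.77e-04) in culture. The difference between them, culture minus spleen, was 4.35 ± 0.41 (adjusted p = 8.29e-06), the highest of all 102.

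The promoter windows of these neighbours are given beside those of Gpr33 and Adgre4, whose differences in spleen are described next, because the subset differences of all 4 genes differed between the sources. Each runs 5′ to 3′ on the gene's own strand from 250 bases before to 50 bases after the gene start (RefSeq, GRCm38.p6), at chr13:19732902-19733201 (minus strand) for Gpr141b, at chr13:19824208-19824507 (minus strand) for Gpr141, at chr12:52028014-52028313 (minus strand) for Gpr33 and at chr17:55749734-55750033 (plus strand) for Adgre4. Capitals mark matches, on either strand, to an interferon-stimulated response element (GAAA, any 2 bases, GAAA), a gamma-activated site (TTCNNNGAA), an ETS-IRF composite element (GGAA, any 2 bases, GAAA), an AP-1 site (TGANTCA) or a PU.1 box (GAGGAA).
Gpr141b: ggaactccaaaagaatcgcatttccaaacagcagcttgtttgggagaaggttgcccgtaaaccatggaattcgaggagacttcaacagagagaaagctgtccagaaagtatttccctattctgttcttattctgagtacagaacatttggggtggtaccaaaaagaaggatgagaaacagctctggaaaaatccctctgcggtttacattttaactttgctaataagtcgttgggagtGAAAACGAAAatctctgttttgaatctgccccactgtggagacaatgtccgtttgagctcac
Gpr141: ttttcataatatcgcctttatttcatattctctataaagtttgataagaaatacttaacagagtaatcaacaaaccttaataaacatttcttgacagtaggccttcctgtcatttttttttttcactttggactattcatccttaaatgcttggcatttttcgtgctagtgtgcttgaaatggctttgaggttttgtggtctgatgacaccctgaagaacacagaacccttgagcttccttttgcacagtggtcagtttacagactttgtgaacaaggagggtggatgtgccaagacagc
Gpr33: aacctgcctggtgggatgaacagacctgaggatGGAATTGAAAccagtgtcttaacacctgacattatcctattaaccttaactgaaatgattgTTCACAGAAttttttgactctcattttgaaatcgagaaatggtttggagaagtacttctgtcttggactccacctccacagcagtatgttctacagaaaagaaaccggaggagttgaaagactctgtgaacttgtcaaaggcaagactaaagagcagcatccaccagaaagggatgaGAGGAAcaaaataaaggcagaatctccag
Adgre4: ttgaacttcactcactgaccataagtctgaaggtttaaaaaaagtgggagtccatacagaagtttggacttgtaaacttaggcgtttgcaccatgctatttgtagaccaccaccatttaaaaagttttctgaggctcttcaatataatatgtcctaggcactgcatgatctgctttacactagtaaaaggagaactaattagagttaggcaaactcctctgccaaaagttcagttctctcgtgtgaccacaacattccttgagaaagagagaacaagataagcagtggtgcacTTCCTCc
The Gpr141b window held 1 interferon-stimulated response element, whose first base lay 12 bases before the gene start, and the Gpr141 window held none of the 5 motifs. The Gpr33 window held 1 composite element, 217 bases before the start, 1 gamma-activated site, 156 bases before it, and 1 PU.1 box, 22 bases after it. The Adgre4 window held 1 PU.1 box on the other strand, 44 bases after the start. Of 32851 mouse promoter windows of this length, 3.44% held the response element, 8.3% the gamma-activated site, 2.72% the composite element, 7.81% the AP-1 site and 28.3% the PU.1 box. The 95 windows of 75 receptors held them in 6.32%, 8.42%, 1.05%, 8.42% and 29.5%. A match describes letters and does not show binding.

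Gpr33, Gpr171 and Gpr31b were also higher in spleen CD24+ cells. Gpr33, a receptor whose human gene is a pseudogene in most people, gave 9.96 and 10.17 in KO and 9.74 and 9.11 in WT spleen CD24+ cells, against 6.08 and 6.06 in KO and 5.96 and 6.07 in WT spleen CD172a+ cells. It was higher in spleen CD24+ cells (3.70 ± 0.17, adjusted p = 6.07e-09), and the CD172a+ arrays lay below the array median. Gpr171, an orphan receptor on chromosome 3, gave 12.21 and 12.33 in KO and 12.15 and 12.19 in WT spleen CD24+ cells, against 8.65 and 9.54 in KO and 9.22 and 9.32 in WT spleen CD172a+ cells. The arrays did not overlap, and the difference was 3.04 ± 0.20 (adjusted p = 1.73e-07). Gpr31b, on chromosome 17, was 10.14 to 10.53 in spleen CD24+ and 8.83 to 9.21 in spleen CD172a+ cells (1.38 ± 0.23, adjusted p = 5.41e-04). Its other probe set gave nearly the same subset differences, 1.37 in spleen and 2.42 in culture, and the array may not tell near-identical copies of this gene apart.

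Among class C receptors, Gprc5c, an orphan of the retinoic acid-inducible group, was on opposite sides in the sources. It gave 10.07 and 10.12 in KO and 10.44 and 9.59 in WT spleen CD24+ cells, against 7.41 and 7.25 in KO and 7.29 and 6.91 in WT spleen CD172a+ cells, a difference of 2.84 ± 0.25 (adjusted p = 2.17e-06). In culture it gave 8.42 and 9.57 in KO and 8.98 and 8.21 in WT CD24+ cells, against 10.40 and 10.31 in KO and 10.34 and 10.36 in WT CD172a+ cells, a difference of -1.55 ± 0.25 (adjusted p = 5.07e-04). The arrays of the subsets did not overlap in either source. A second probe set of the gene gave 2.08 in spleen and -1.38 in culture. Gprc5b and Gprc5a, of the same group, were lower in spleen CD24+ cells by 0.91 and 0.64 on the log2 scale.

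**Figure D2:**
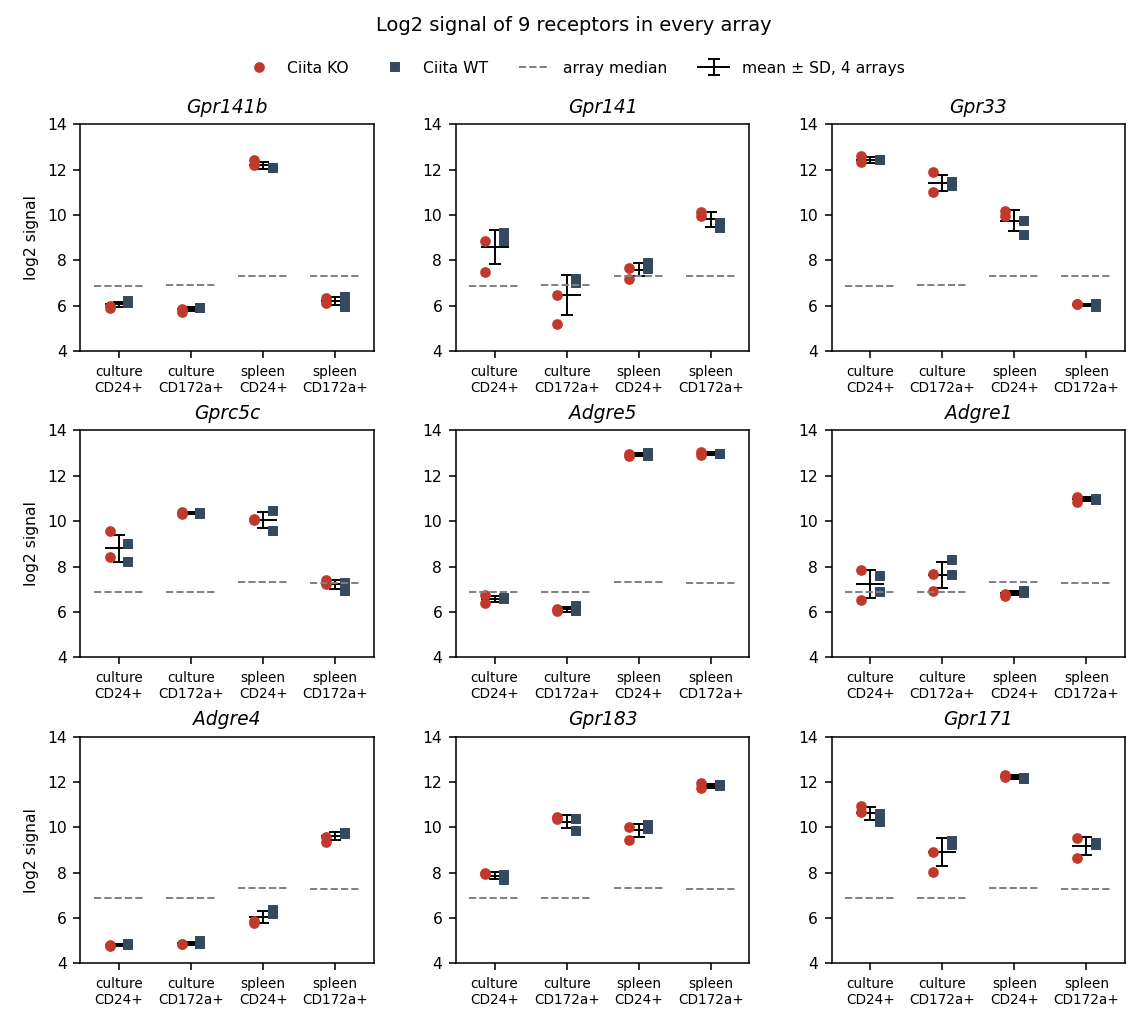
Log2 signal of 9 receptors in every array, with Ciita KO arrays as red circles and Ciita WT arrays as blue squares, for CD24+ and CD172a+ cells of culture and spleen. Black marks are the mean ± SD of 4 arrays and dashed lines the array medians. Gpr141b rises above its median in spleen CD24+ cells, and Adgre5 in both spleen subsets.

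Of the 26 adhesion receptors, 3 were higher and 5 lower in CD24+ than in CD172a+ spleen cells, near the 15.6% and 13.4% of all genes. The E subfamily marks myeloid cells. Adgre1, which encodes the macrophage antigen F4/80, gave 6.72 and 6.80 in KO and 6.83 and 6.92 in WT spleen CD24+ cells, against 11.05 and 10.85 in KO and 10.99 and 10.95 in WT spleen CD172a+ cells. The signal was lower in CD24+ cells (-4.14 ± 0.27, adjusted p = 1.41e-07), where all 4 arrays lay below the array median. Adgre4 gave 5.77 and 5.88 in KO and 6.16 and 6.38 in WT spleen CD24+ cells, against 9.37 and 9.58 in KO and 9.76 and 9.70 in WT spleen CD172a+ cells (-3.56 ± 0.067, adjusted p = 3.49e-12). Adgre5, which encodes CD97, a receptor that binds CD55, was 12.86 to 13.02 in spleen CD24+ and 12.91 to 13.07 in spleen CD172a+ cells, and did not differ beyond its spread (-0.05 ± 0.077, adjusted p = 0.691).

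Most markers of macrophages and monocytes were, like Adgre1 and Adgre4, lower in spleen CD24+ than in spleen CD172a+ cells. Of 8 listed, 6 were measured, and their summed log2 signal was 49.0 to 50.2 in spleen CD24+ and 52.3 to 55.2 in spleen CD172a+ arrays. Csf1r was 8.14 to 8.52 in spleen CD24+ and 10.17 to 10.60 in spleen CD172a+ arrays. Mertk, a defining marker of macrophages, was 6.38 to 6.55 in spleen CD24+ and 6.67 to 7.36 in spleen CD172a+ arrays. Vcam1 overlapped, with 8.33 to 8.52 in spleen CD24+ and 7.83 to 9.02 in spleen CD172a+ arrays. Summed signals of 5 measured plasmacytoid markers were 45.3 to 46.8 in spleen CD24+ and 42.8 to 43.3 in spleen CD172a+ arrays. Of these, Tcf4 went the other way, at 9.44 to 9.85 in spleen CD24+ and 10.02 to 10.23 in spleen CD172a+ arrays, and Cox6a2 overlapped. Those of 8 neutrophil markers were 52.5 to 71.7 in spleen CD24+ and 51.0 to 55.0 in spleen CD172a+ arrays, with spleen CD24+ KO replicate 2 the highest. The part of any of these in the receptor differences was not tested.

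Among latrophilins, the L subfamily that binds teneurins and FLRT proteins, Adgrl3 gave 9.07 and 8.26 in KO and 8.64 and 8.76 in WT spleen CD24+ cells, against 10.85 and 10.63 in KO and 10.63 and 10.49 in WT spleen CD172a+ cells (-1.97 ± 0.13, adjusted p = 2.24e-07). Adgrl1 was also lower in spleen CD24+ cells, by less (-0.65 ± 0.055, adjusted p = 1.90e-06). Adgrg6, known as Gpr126 and needed by Schwann cells to make myelin, was 6.90 to 7.31 in spleen CD24+ and 8.54 to 8.88 in spleen CD172a+ cells (-1.55 ± 0.23, adjusted p = 2.14e-04). Adgrf5, known as Gpr116 and for its control of lung surfactant, went the other way. It gave 8.02 and 8.40 in KO and 7.95 and 7.91 in WT spleen CD24+ cells, against 6.005 and 5.84 in KO and 5.77 and 5.90 in WT spleen CD172a+ cells, and was higher in CD24+ cells (2.19 ± 0.077, adjusted p = 5.38e-10).

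Of 12 receptors for lipids, metabolites and protons, 3 were higher and 3 lower in spleen CD24+ cells, against 15.6% and 13.4% of all genes. Gpr183, the oxysterol receptor, gave 9.999 and 9.44 in KO and 9.94 and 10.11 in WT spleen CD24+ cells, against 11.95 and 11.75 in KO and 11.82 and 11.86 in WT spleen CD172a+ cells. It was lower in CD24+ cells (-1.97 ± 0.13, adjusted p = 2.02e-07), with no overlap. The proton-sensing receptors Gpr65 and Gpr4 were higher in CD24+ cells, by 0.65 ± 0.16 (adjusted p = 0.00701) and by 0.76 ± 0.12 (adjusted p = 3.97e-04). Gpr35, a receptor proposed for kynurenic acid and other metabolites, was lower (-0.66 ± 0.10, adjusted p = 2.51e-04), as was Gpr132, a receptor proposed for oxidized fatty acids (-0.50 ± 0.095, adjusted p = 0.00156). Gpr3, which raises cyclic AMP without a ligand, was lower in CD24+ cells, with a difference of -1.04 ± 0.046 (adjusted p = 4.42e-09), and so was Gpr155, a lysosomal cholesterol sensor, with -1.20 ± 0.095 (adjusted p = 1.01e-06).

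In culture, Gpr183 was again lower in CD24+ cells, and Gpr31b, Gpr82 and Gpr141 were higher. Of the 102, 16 were higher and 8 lower in cultured CD24+ than in cultured CD172a+ cells, while 11.2% of all genes were called higher and 13.7% lower. At least 2-fold changes were called for 10 receptors, against 3.14% of all genes. The median size of a difference was smaller for the receptors, at 0.0616, than for all genes, at 0.0909. Gpr183 gave 7.94 and 7.99 in KO and 7.91 and 7.67 in WT cultured CD24+ cells, against 10.46 and 10.36 in KO and 9.83 and 10.38 in WT cultured CD172a+ cells (-2.38 ± 0.13, adjusted p = 1.52e-07). Gpr18, a lipid receptor that lies next to Gpr183 on chromosome 14, gave 9.87 and 10.19 in KO and 9.86 and 9.72 in WT cultured CD24+ cells, against 10.91 and 10.92 in KO and 10.50 and 10.94 in WT cultured CD172a+ cells (-0.91 ± 0.11, adjusted p = 7.36e-05). In spleen its difference of -0.30 ± 0.11 did not pass (adjusted p = 0.0637).

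The windows of this second neighbouring pair, at chr14:121965144-121965443 (minus strand) and chr14:121915839-121916138 (minus strand) in GRCm38.p6, are shown because both genes were lower in cultured CD24+ cells. Capitals mark the same motifs as above.
Gpr183: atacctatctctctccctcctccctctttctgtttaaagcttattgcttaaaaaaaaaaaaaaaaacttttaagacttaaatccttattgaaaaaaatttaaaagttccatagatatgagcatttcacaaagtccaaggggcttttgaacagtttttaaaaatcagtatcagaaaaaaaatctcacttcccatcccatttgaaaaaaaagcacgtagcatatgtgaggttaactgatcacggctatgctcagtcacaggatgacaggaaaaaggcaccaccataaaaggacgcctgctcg
Gpr18: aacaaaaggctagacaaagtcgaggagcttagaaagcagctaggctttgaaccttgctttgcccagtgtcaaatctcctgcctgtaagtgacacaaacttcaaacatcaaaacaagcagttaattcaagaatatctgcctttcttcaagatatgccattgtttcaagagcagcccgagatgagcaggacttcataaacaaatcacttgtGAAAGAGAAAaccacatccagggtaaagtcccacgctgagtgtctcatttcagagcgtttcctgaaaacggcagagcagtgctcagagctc
The Gpr18 window held 1 interferon-stimulated response element, 41 bases before the gene start. None of the 5 motifs was in the Gpr183 window. Over all 102 receptors, 11 pairs were neighbours in the RefSeq gene order. In 5 pairs both genes, in 5 pairs 1 gene and in 1 pair neither gene passed the limit of the array median. No share for neighbouring pairs of all genes is given, so these counts do not set the receptor pairs apart.

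Higher in cultured CD24+ cells were Gpr31b and several orphan receptors. Gpr31b, listed here with the lipid and metabolite receptors, gave 11.05 and 9.78 in KO and 10.45 and 11.11 in WT cultured CD24+ cells, against 8.16 and 7.93 in KO and 8.34 and 8.33 in WT cultured CD172a+ cells (2.41 ± 0.23, adjusted p = 1.06e-05). Gpr82, an X-linked orphan, gave 6.95 and 6.77 in KO and 6.66 and 7.10 in WT cultured CD24+ cells, against 4.43 and 4.53 in KO and 4.87 and 4.80 in WT cultured CD172a+ cells, where it lay well below the array median (2.21 ± 0.087, adjusted p = 1.13e-08). Gpr171 gave 10.69 and 10.94 in KO and 10.23 and 10.61 in WT cultured CD24+ cells, against 8.93 and 8.04 in KO and 9.24 and 9.42 in WT cultured CD172a+ cells (1.71 ± 0.20, adjusted p = 5.61e-05). Gpr33 was 12.32 to 12.61 in cultured CD24+ and 11.02 to 11.88 in cultured CD172a+ cells (1.03 ± 0.17, adjusted p = 6.82e-04). Gpr160, an orphan on chromosome 3, was 7.85 to 8.75 in cultured CD24+ and 6.63 to 7.43 in cultured CD172a+ cells (1.24 ± 0.20, adjusted p = 6.24e-04). None of these 5 overlapped between the cultured subsets, as was so for 22.3% of all genes.

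Gpr35 and Gpr65 changed sides between the sources. Gpr35 gave 10.29 and 9.81 in KO and 10.33 and 10.41 in WT cultured CD24+ cells, against 8.91 and 8.58 in KO and 9.32 and 9.42 in WT cultured CD172a+ cells (1.15 ± 0.10, adjusted p = 5.14e-06). Gpr65 gave 9.28 and 10.23 in KO and 9.13 and 9.30 in WT cultured CD24+ cells, against 10.96 and 11.32 in KO and 10.54 and 10.59 in WT cultured CD172a+ cells (-1.37 ± 0.16, adjusted p = 4.68e-05). Gpr137b and its transcribed pseudogene Gpr137b-ps, near-identical copies whose signals are uncertain as to source, were lower in cultured CD24+ cells, with differences of -0.73 ± 0.16 and -0.82 ± 0.15. Gpr137b encodes a protein of the lysosome membrane.

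Among adhesion receptors in culture, 2 of 26 were higher and 1 lower in CD24+ cells, against 11.2% and 13.7% of all genes. Adgre5 was higher (0.47 ± 0.077, adjusted p = 6.28e-04), at 6.41 to 6.73 in cultured CD24+ and 6.04 to 6.25 in cultured CD172a+ cells, all below the array medians. Adgra2, known as Gpr124 and a partner of Wnt7 signalling in brain vessels, was higher as well (0.55 ± 0.095, adjusted p = 9.84e-04). Adgrg6 was lower, at 10.12 and 11.41 in KO and 10.43 and 9.80 in WT cultured CD24+ cells, against 11.44 and 11.53 in KO and 11.20 and 11.15 in WT cultured CD172a+ cells (-0.89 ± 0.23, adjusted p = 0.0123). Its CD24+ KO replicate 2 lay within the range of the CD172a+ arrays. Without CD24+ WT replicate 2 the difference was -0.73 and did not pass (adjusted p = 0.0605), and with the culture arrays alone it did not pass either (adjusted p = 0.0672).

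Culture CD24+ KO replicate 2, which stood apart in its markers, lay nearer than the other 3 arrays to the CD172a+ arrays for Gprc5c, Gpr31b, Gpr65, Gpr141 and Adgrg6. Without it the subset difference in culture was -1.84 for Gprc5c, 2.72 for Gpr31b, -1.61 for Gpr65, 2.48 for Gpr141 and -1.21 for Adgrg6. Each was larger in size than with all arrays, as had to follow from choosing receptors for which this array lay nearest. Gpr18 and Gpr35 were further receptors for which it lay nearest to the CD172a+ arrays, and for Gpr171 it lay farthest.

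The subset differences in culture and in spleen were then set against each other, from separate arrays. The difference between them passed for 36 of the 102 receptors, with 21 higher and 15 lower in culture, while 12.5% of all genes were higher and 15.7% lower. Differences of at least 2-fold were called for 17, against 6.09% of all genes. Of the receptors called within a source, 4 were higher in CD24+ cells of both (Gpr157, Gpr171, Gpr31b and Gpr33), which is 4 of 15 called higher in spleen and 4 of 16 in culture. Lower in both were 2 (Adgrg6 and Gpr183), of 19 in spleen and 8 in culture. The culture call of Adgrg6 was lost with the culture arrays alone, and also without CD24+ WT replicate 2. Called in opposite directions were 6 (Gprc5c, Gpr141, Gpr35, Gpr65, Gpr153 and Gpr82), and all 6 passed the test of the difference. The spleen call of Gpr82 was lost when any 1 of 6 spleen arrays was left out, which leaves 5 in opposite directions. Of these, Gpr153 lay above the array median in only 1 array. No share of all genes is given for these overlaps, so the counts do not set the receptors apart from other genes.

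The difference between the sources was given for receptors in both directions. Culture minus spleen was -5.78 ± 0.12 (adjusted p = 4.40e-11) for Gpr141b and -4.39 ± 0.35 (adjusted p = 1.89e-06) for Gprc5c. It was -2.67 ± 0.24 (adjusted p = 5.56e-06) for Gpr33 and -2.23 ± 0.11 (adjusted p = 3.01e-08) for Adgrf5. In the other direction it was 3.72 ± 0.38 (adjusted p = 1.42e-05) for Adgre1, 3.48 ± 0.095 (adjusted p = 2.76e-10) for Adgre4 and 2.04 ± 0.19 (adjusted p = 6.56e-06) for Adgrl3. It was 2.48 ± 0.12 (adjusted p = 3.30e-08) for Gpr82. For Gpr183, lower in CD24+ cells of both sources, it was -0.41 ± 0.19 and did not pass (adjusted p = 0.127), with a 95% interval of -0.82 to -0.0048. In culture, all arrays lay below the array median for Gpr141b, Adgrf5, Adgre4 and Adgrl3. The values of these receptors thus mostly restate their subset differences in spleen with the sign turned.

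**Figure D3:**
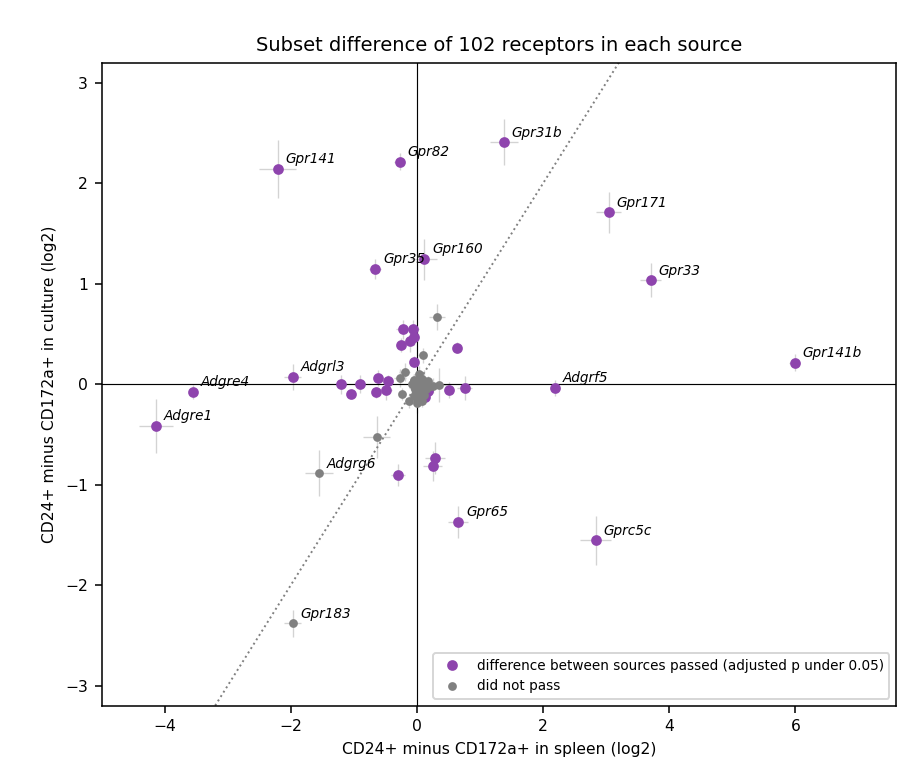
Log2 difference CD24+ minus CD172a+ of the 102 receptors in culture (vertical) against that in spleen (horizontal), with standard errors as lines. Purple points passed the test of the difference between the sources, grey points did not, and the dotted line marks equal differences. Gpr141b lies far right at 5.99 in spleen, and Gpr183 near the line.

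In culture, Adgre5, Adgrl3, Adgra2 and Gpr34 were lower and Adgrg6, Gpr33 and Gpr157 higher than in spleen, in both subsets. The array medians were 6.85 to 6.92 in culture and 7.29 to 7.32 in spleen, so the 2 sources look normalized as separate sets and the median gene fell by 0.34 in CD24+ and by 0.28 in CD172a+ cells. As deposited, 16 of the 102 receptors were called higher and 55 lower in cultured than in spleen CD24+ cells, while 13.8% of all genes were higher and 65.3% lower. In CD172a+ cells 22 were higher and 59 lower, while 16.6% of all genes were higher and 60.2% lower. The direction of many calls rests on the scaling. With array medians set equal, 55 were higher and 26 lower in CD24+ and 53 higher and 25 lower in CD172a+ cells, while 47.1% (higher) and 29.5% (lower) of all genes were called in CD24+ and 49.4% (higher) and 29.5% (lower) in CD172a+ cells. With quantile normalization, 48 were higher and 28 lower in CD24+ and 49 higher and 31 lower in CD172a+ cells, while 39.8% (higher) and 34% (lower) of all genes were called in CD24+ and 43% (higher) and 32.6% (lower) in CD172a+ cells. Under all 3 scalings the same call was made for 16 higher and 26 lower receptors in CD24+ cells and for 22 higher and 25 lower in CD172a+ cells. Of these, 11 were higher and 18 lower in both subsets, and 3 (Gpr141, Gpr35 and Gprc5c) were called in opposite directions. No share of all genes under this rule is given, so these counts do not set the receptors apart from other genes.

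Adgre5 was far lower in culture. It gave 6.73 and 6.41 in KO and 6.57 and 6.63 in WT cultured CD24+ cells, against 12.98 and 12.86 in KO and 12.88 and 13.02 in WT spleen CD24+ cells. In CD172a+ cells it gave 6.04 and 6.11 in KO and 6.25 and 6.05 in WT cultured, against 13.07 and 12.91 in KO and 12.97 and 12.98 in WT spleen cells. The 8 culture arrays lay below their medians and the 8 spleen arrays far above. Relative to the median gene it was lower in cultured CD24+ (log2 -6.02, SE 0.077, adjusted p = 4.75e-14) and in cultured CD172a+ cells (log2 -6.60, SE 0.077, adjusted p = 1.94e-14). Here and below, a change relative to the median gene is the deposited change minus that of the median gene. The p-value beside it is from limma's test of the deposited change, not of the relative one.

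Further adhesion receptors that were lower in culture are given relative to the median gene. Adgrl3 was 5.07 to 5.17 in cultured CD24+ and 4.97 to 5.18 in cultured CD172a+ cells, and its log2 change was -3.23 in CD24+ and -5.33 in CD172a+ cells. Adgra2 changed by -2.42 in CD24+ and -3.25 in CD172a+ cells, with all 8 culture arrays below all 8 spleen arrays. For Adgre4 the change was -0.90 in CD24+ and -4.44 in CD172a+ cells, where culture fell to 4.84 to 5.01. Adgre1 fell by 3.05 in CD172a+ cells, with 7.69 and 6.92 in KO and 7.64 and 8.28 in WT cultured, against 11.05 and 10.85 in KO and 10.99 and 10.95 in WT spleen cells. In CD24+ cells its change as deposited, and not relative to the median gene, was 0.40 ± 0.27 and did not pass. The median gene fell by 0.34 there, so the change relative to it was a larger rise. Adgrf5 fell by 2.31 in CD24+ cells. All of these calls had the same direction under the 3 scalings. Summed macrophage and monocyte markers were 42.9 to 43.6 in cultured and 49.0 to 50.2 in spleen CD24+ arrays. In CD172a+ arrays they were 42.1 to 42.9 in culture and 52.3 to 55.2 in spleen. Csf1r, Cd68 and Spic were lower in culture in both subsets, and Vcam1 in CD24+ cells. Mertk went the other way in CD24+ cells, at 6.84 to 7.96 in cultured and 6.38 to 6.55 in spleen arrays. So did Fcgr1, at 7.10 to 7.74 in cultured and 6.68 to 6.88 in spleen arrays. In CD172a+ cells Mertk, Fcgr1 and Vcam1 overlapped between the sources. As deposited, summed B cell, T cell, NK cell and neutrophil markers were also higher in spleen, in both subsets. B cell sums in CD24+ arrays were 29.4 to 29.6 in culture and 34.3 to 34.9 in spleen. In the same order, T cell sums were 24.5 to 26.1 and 30.8 to 32.6. Plasmacytoid sums went the other way in CD172a+ arrays, as did Klrk1 and Ebf1 in both subsets. The part of any of these markers in the receptor changes was not tested.

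Adgrg6 was an adhesion receptor that rose in culture. It gave 10.12 and 11.41 in KO and 10.43 and 9.80 in WT cultured CD24+ cells, against 6.90 and 7.31 in KO and 7.19 and 7.30 in WT spleen CD24+ cells. In CD172a+ cells it gave 11.44 and 11.53 in KO and 11.20 and 11.15 in WT cultured, against 8.63 and 8.88 in KO and 8.87 and 8.54 in WT spleen cells. Every culture array lay above every spleen array. The change relative to the median gene was 3.60 in CD24+ cells (SE 0.23, adjusted p = 4.63e-08) and 2.88 in CD172a+ cells (SE 0.23, adjusted p = 3.96e-07).

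Gpr33 rose in culture in both subsets. Cultured CD24+ cells gave 12.61 and 12.32 in KO and 12.41 and 12.42 in WT arrays, and cultured CD172a+ cells 11.88 and 11.02 in KO and 11.26 and 11.46 in WT arrays. Relative to the median gene its log2 change was 3.03 in CD24+ cells (adjusted p = 1.79e-08) and 5.64 in CD172a+ cells (adjusted p = 3.10e-11). Gpr157, an orphan of chromosome 4, rose by 1.88 in CD24+ and 2.09 in CD172a+ cells. Gpr52, an orphan best known in the striatum, rose by 1.75 in CD24+ and 2.05 in CD172a+ cells, and Gpr19 by 1.78 in CD24+ and 1.11 in CD172a+ cells. Gpr85, above the array median in 1 array, rose by 1.17 in CD24+ and 1.30 in CD172a+ cells. Gpr160 rose in CD24+ cells, by 1.69, and Gpr108, a protein of the Golgi, by 0.80 in CD24+ and 0.82 in CD172a+ cells.

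Orphan and lipid receptors that were lower in culture included the receptor that marked spleen CD24+ cells. Gpr141b changed by -5.80 in cultured CD24+ cells relative to the median gene (adjusted p = 1.15e-13). In CD172a+ cells its deposited change of -0.35 ± 0.084 turned positive under the other 2 scalings. Gpr34, a lysophosphatidylserine receptor, was 5.30 to 5.94 in cultured and 8.52 to 8.81 in spleen CD24+ cells, and 4.86 to 5.03 in cultured and 8.17 to 8.71 in spleen CD172a+ cells. Its changes relative to the median gene were -2.70 in CD24+ and -3.11 in CD172a+ cells. Gpr183 changed by -1.66 in CD24+ and -1.31 in CD172a+ cells, and Gpr65 by -2.53 in CD24+ and -0.57 in CD172a+ cells. Gpr155 changed by -1.04 in CD24+ and -2.30 in CD172a+ cells, and Gprc5b by -1.16 and -2.13 in the same order.

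Gprc5c, Gpr141 and Gpr35 moved with culture in opposite directions in the 2 subsets, under each of the 3 scalings. For Gprc5c the change relative to the median gene was -0.92 in CD24+ and 3.41 in CD172a+ cells. For Gpr141 it was 1.35 in CD24+ and -3.06 in CD172a+ cells. For Gpr35 it was 0.59 in CD24+ and -1.28 in CD172a+ cells. Its call in CD24+ cells was lost when any 1 of 4 arrays was left out, with a deposited change of 0.13 and an adjusted p of 0.144 without culture CD24+ KO replicate 1.

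**Figure D4:**
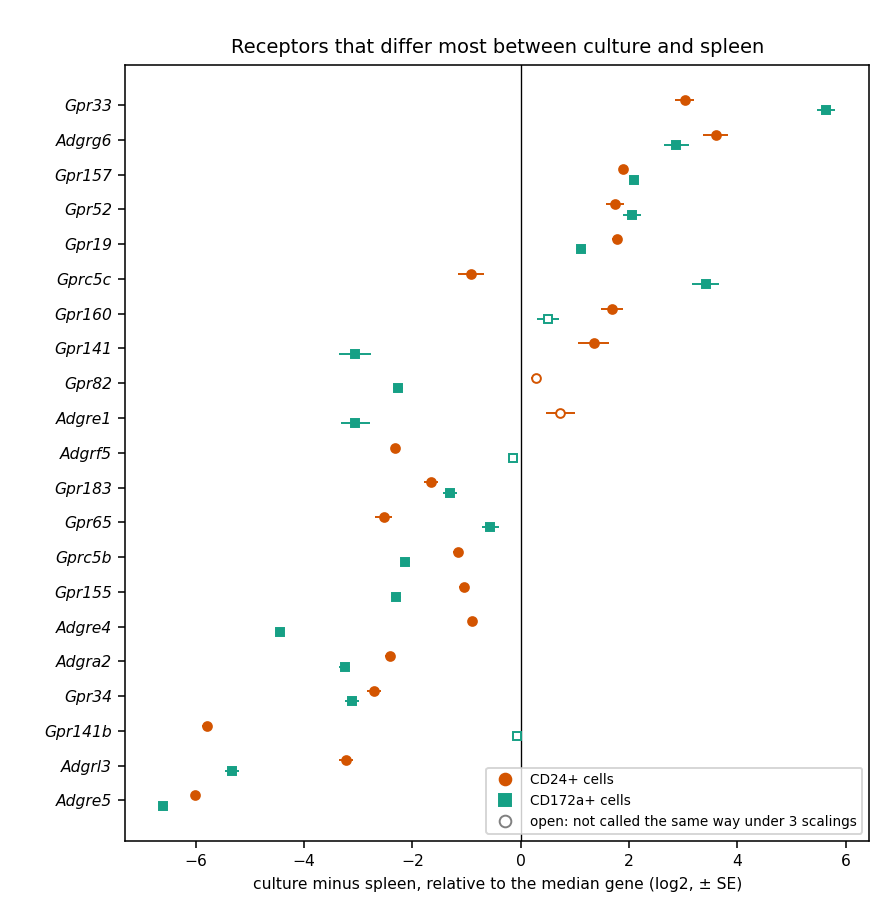
Log2 change, culture minus spleen and relative to the median gene, of the 21 receptors whose change was over 1.5 in size in either subset. CD24+ cells are orange circles and CD172a+ cells green squares, with ± SE as lines. Open symbols were not called the same way under the 3 scalings. Adgre5 lies at -6.02 and -6.60, Gpr33 at 3.03 and 5.64.

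No receptor of the 102 was called higher or lower in Ciita KO than in WT cells at an adjusted p under 0.05 by limma, in any subset, in either source or over all mice. Called among all genes were 0.0953% in cultured CD24+, 0.0602% in cultured CD172a+, 0.0602% in spleen CD24+ and 0.0802% in spleen CD172a+ cells, and 0.0351% over the 8 mice with source as a covariate. At an unadjusted p under 0.05 there were 6, 8, 7 and 7 receptors in these 4 groups and 7 over the mice, against 7.05%, 6.63%, 4.52%, 5.22% and 5.5% of all genes. The smallest adjusted p in spleen CD24+ cells was that of Gpr82, with 7.25 and 7.21 in KO and 6.69 and 6.55 in WT arrays (0.61 ± 0.12, adjusted p = 0.287). In spleen CD172a+ cells it was that of Gpr162, with 8.53 and 8.24 in KO and 7.90 and 8.10 in WT arrays (0.38 ± 0.11, adjusted p = 0.59). In cultured CD24+ cells it was that of Gpr153, with 6.56 and 6.54 in KO and 6.93 and 6.76 in WT arrays (-0.30 ± 0.10, adjusted p = 0.613). Cultured CD172a+ cells had theirs for Gpr35, with 8.91 and 8.58 in KO and 9.32 and 9.42 in WT arrays (-0.63 ± 0.14, adjusted p = 0.371).

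The second-smallest p in cultured CD172a+ cells was that of Gpr141, with a difference of -1.24 ± 0.41 (adjusted p = 0.596). It gave 6.47 and 5.21 in KO and 7.16 and 7.01 in WT arrays. Adgre4 was 5.77 and 5.88 in KO and 6.16 and 6.38 in WT spleen CD24+ arrays (-0.44 ± 0.095, adjusted p = 0.36), and over all mice its difference was -0.20 ± 0.072 (adjusted p = 0.856). Gpr21 had the smallest p over all mice (-0.11 ± 0.036, adjusted p = 0.856). With 2 arrays a group, leaving out 1 array could make calls, and no share of all genes is given for these settings. Without culture CD24+ KO replicate 1, only the KO array that stood apart was left. The differences in cultured CD24+ cells were then 1.30 for Adgrg6 and -1.51 for Gpr141. The lone array is then assumed to vary like the other groups. In cultured CD172a+ cells 1 receptor was called without either culture CD24+ KO array (Gpr35, adjusted p = 0.0329) or without CD172a+ KO replicate 1 (Gpr4, -0.80, adjusted p = 0.0341).

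**Figure D5:**
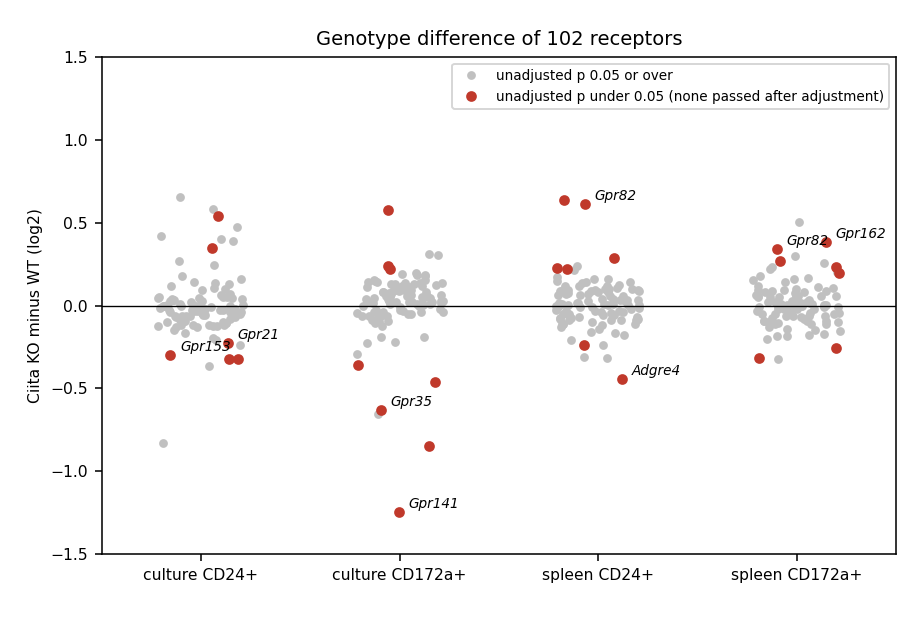
Log2 difference Ciita KO minus WT of the 102 receptors (points) in CD24+ and CD172a+ cells of culture and spleen. Red points had an unadjusted p under 0.05, and none passed after adjustment. Most points lie near 0, and the lowest is Gpr141 in cultured CD172a+ cells at -1.24.

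Proteins that work with the receptors were counted from lists of G protein alpha subunits, receptor kinases and arrestins, RGS proteins, and ligands or enzymes that make or break ligands. None of the 50 measured was called by genotype. Beside the counts below stand the shares of all genes, 15.6% higher and 13.4% lower in spleen and 11.2% and 13.7% in culture. Of 15 alpha subunits, 6 were higher and 0 lower in spleen CD24+ than CD172a+ cells, and 3 were higher and 1 lower in culture. Gna15, a promiscuous alpha subunit of blood cells, was higher in CD24+ cells of both sources, by 1.65 in culture (adjusted p = 1.16e-06) and 2.03 in spleen (adjusted p = 5.74e-08). Arrb1, a beta-arrestin that ends receptor signals, was higher in CD24+ cells by 1.51 in culture and 1.43 in spleen (adjusted p = 1.66e-05 and 1.31e-05). Of 20 RGS proteins, which speed the switching off of G proteins, 5 were higher and 1 lower in CD24+ cells in culture, and 1 was higher and 4 lower in spleen. Of 9 receptor kinases and arrestins, 2 were higher and 2 lower in culture, and 2 were higher and 1 lower in spleen. Of 6 ligands and ligand enzymes, 2 were higher and 1 lower in culture, and 2 were higher and 0 lower in spleen.

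Rgs18 was lower in culture, at -5.15 in CD24+ and -6.36 in CD172a+ cells relative to the median gene (adjusted p = 2.87e-13 and 4.18e-14). Ch25h, the enzyme that starts the synthesis of the Gpr183 ligand, was higher in cultured CD24+ than CD172a+ cells by 2.03 (adjusted p = 1.07e-06), and in cultured than in spleen CD24+ cells by 2.31 relative to the median gene (adjusted p = 6.64e-08). Cyp7b1, the next enzyme of that synthesis, changed with culture by -0.90 in CD24+ and -0.48 in CD172a+ cells relative to the median gene (adjusted p = 2.83e-08 and 2.89e-06), with group means below the array medians. Hsd3b7, which breaks that ligand down, was higher in spleen CD24+ than CD172a+ cells by 1.21 (adjusted p = 4.53e-07). Pla1a makes lysophosphatidylserine, the ligand of Gpr34. Relative to the median gene it was higher in culture by 2.53 in CD24+ and 3.56 in CD172a+ cells (adjusted p = 7.02e-08 and 1.50e-09).

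The 48 low receptors had mean log2 signals between 4.35 and 6.81 and a range over the 16 arrays of 0.24 to 1.44. They took in 12 of the 26 adhesion receptors, 4 of the 12 receptors for lipids, metabolites or protons, 3 of 7 class C receptors, 1 of 9 intracellular or non-classical members and 28 of 48 other orphans. Adgrl4 and Adgrg4 were among them, as were Gpr174, Gpr55, Gpr84 and Gpr119. Gpr84, a receptor for medium-chain fatty acids, was 6.26 to 6.39 in cultured CD24+ and 5.82 to 6.18 in cultured CD172a+ cells, and was called higher in CD24+ cells (0.29 ± 0.073, adjusted p = 0.0116). Gpr55, a lysophosphatidylinositol receptor, was called higher in cultured CD24+ cells as well (0.43 ± 0.12, adjusted p = 0.0171). Gpr174 had the lowest mean of all 102, with 4.17 to 4.30 in cultured CD24+, 4.13 to 4.27 in cultured CD172a+, 4.40 to 4.51 in spleen CD24+ and 4.43 to 4.60 in spleen CD172a+ arrays.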

How the data were processed

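RNA of sorted cells was measured on 16 arrays, and the authors deposited a log2 value for each probe set. The sources used here do not give their background correction, normalization or summarization. Per the labels' protocols, extraction used EZNA MicroElute, digestion TURBO DNase, and amplification Ovation Pico WTA. Of 30177 probe sets, 21789 had 1 gene symbol, 1621 several and 6767 none, and those without a single symbol were not tested. The probe set with the highest mean stood for each of 999 genes with more than 1, Gprc5c, Gpr31b and Adgrl2 among the receptors. Probe set coordinates were not used, and promoter windows come from RefSeq.

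The log2 values were fitted with limma 3.58.1 in R 4.3.3, with a mean for each group, 8 residual degrees of freedom and 3.95 from the prior, and Benjamini-Hochberg adjustment over 19938 genes. The comparison over mice used the mean of the 2 arrays of each mouse with source as a covariate. Alternatives were other scalings, filters, probe sets and variance models, a mouse block, and leaving out each array. The labels name the mouse of each array, so the 2 arrays of a mouse are paired. Their deviations from the group means correlated at 0.393 in culture KO, 0.205 in culture WT, 0.202 in spleen KO and -0.0957 in spleen WT mice, and the block correlation was 0.121. The fit was tested on simulated data. The precision of each value is limited by the number of arrays.

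The receptors and all gene lists were chosen with earlier results of these data known. Receptors were named by rule: Gpr141b, Gprc5c and Adgre5, the 10 highest means, up to 6 of the highest and lowest called changes per subset or culture comparison, the 2 smallest p per genotype comparison, the 3 nearest the median limit on each side, and up to 3 called partners per list and comparison. Others named for their role, such as Gpr3, Gpr84, Gpr174 and Cyp7b1, were chosen after their values were seen.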

Additional observations from a re-analysis of the deposited data

Results flagged for a closer look

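For 12 receptors the subset difference (CD24+ minus CD172a+) differed between the sources by limma's test of the difference itself. They were the 6 highest and the 6 lowest of the called differences. Culture minus spleen was higher for Gpr141 (4.35), Adgre1 (3.72), Adgre4 (3.48), Gpr82 (2.48), Adgrl3 (2.04) and Gpr35 (1.81), on the log2 scale. It was lower for Gpr141b (-5.78), Gprc5c (-4.39), Gpr33 (-2.67), Adgrf5 (-2.23), Gpr65 (-2.02) and Gpr171 (-1.33). For Gpr141b, Adgrf5, Adgre4 and Adgrl3 all culture arrays lay below the array median, so these values mostly restate the spleen differences. Arrays that stand apart within a group could not be tested for, since groups held 2 arrays.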

How the results depend on the processing

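The counts of called receptors, higher and lower summed, kept within 1.5 times the reported ones under all but 1 of the alternative settings that kept all arrays. Split by direction they did not between culture and spleen, where 16 higher and 55 lower in CD24+ cells became 55 and 26 with medians set equal and 48 and 28 with quantile normalization, and 22 and 59 in CD172a+ cells became 53 and 25, and 49 and 31. The exception was testing only genes above the array median in at least 2 arrays, which left 54 receptors to test. It gave 42 called between cultured and spleen CD24+ cells and 45 between cultured and spleen CD172a+ cells. With the mouse as a replicate block (duplicateCorrelation) the counts were 36 in spleen and 24 in culture for the subsets, 39 for the difference between sources, 71 and 80 for culture against spleen in CD24+ and CD172a+ cells, and 0 by genotype. With the mouse as a fixed replicate block they were 34 in spleen, 25 in culture and 36 for the difference. The paired fits changed no call of a named gene. Leaving out 1 array gave 20 to 29 for the subsets in culture, 27 to 37 in spleen, 30 to 40 for the difference, 66 to 76 for culture against spleen in CD24+ and 72 to 82 in CD172a+ cells. By genotype it gave 0 to 8 in cultured CD24+ cells, 0 to 1 in cultured CD172a+ cells, and 0 in spleen and over mice. No shares of all genes are given for the fits without 1 array, so these counts do not set the receptors apart. The changes that turned direction were all between culture and spleen, and scaling shifts all genes there by construction. Gpr18 in CD24+ cells came to 0.084 with medians set equal. In CD172a+ cells Gpr141b came to 0.0012 with quantile normalization and 0.073 with medians set equal, and Adgrf5 came to 0.0049 with medians set equal. Calls that were lost when 1 array was left out were those of Gpr82 between spleen subsets, Gpr132 and Gpr31b for the difference between sources, Gpr35 between cultured and spleen CD24+ cells, Adgrg6 and Cyp27a1 between cultured subsets, and Grk5 between spleen subsets. Calls were also lost under quantile normalization for Gpr31b (difference between sources), and under both other scalings for Gpr137b in CD24+ and Gpr31b in CD172a+ cells between culture and spleen. The cause was not tested. The count of 54 above the median stayed between 53 and 54.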
